A study of Homo sapiens with 36 samples.

Results

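The comparison described here is that of EHEB cells exposed to 50 µM fludarabine for 96 h with EHEB cells exposed to the vehicle dimethyl sulphoxide (DMSO) for 96 h. EHEB is an established B lymphoblastoid leukaemia line with wild-type p53, and both groups are that line with no introduced allele named in the labels, so all 6 libraries come from 1 cell source. Each group held 3 RNA-sequencing libraries, chosen by their sample titles, which makes 6 of the 36 libraries of the series. The other libraries were EHEB cells given 5 µM ibrutinib or 10 µM idelalisib for 96 h, and the lines JVM2 (p53 wild-type, 72 h) and MEC1 (p53 mutated, 48 h) under the same agents. The labels do not say whether the 3 libraries of a group came from separate cultures, so p-values measure the spread between these libraries, which may be technical.

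Fludarabine is a purine nucleoside analogue given in chronic lymphocytic leukaemia. Cells take it up through nucleoside transporters, deoxycytidine kinase begins its phosphorylation, and the triphosphate enters DNA, stalls replication and inhibits ribonucleotide reductase. DNA damage stabilises p53 where the protein is intact, and p53 then activates genes that arrest the cell cycle, repair DNA, feed back on p53 itself or commit the cell to apoptosis. The experiment therefore asks which of these programmes, and which other functions, differ at the transcript level after prolonged exposure of a p53-competent B-cell line.

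Totals of estimated counts ran from 42832321 to 47140796 in the DMSO libraries and from 28080980 to 36523545 in the fludarabine libraries, so the treated libraries were all shallower. Between 21212 and 22273 genes had a count above 0. The 6 B-cell markers, such as MS4A1, CD79A and PAX5, were all expressed, and their summed level was 1486 to 1535 CPM (counts scaled to a common total) with DMSO and 913 to 992 CPM with fludarabine. In bulk RNA, fewer cells of a type or state and less RNA per cell cannot be told apart, here and in the results below. T-cell markers summed to 47.6 to 51.3 and 45.6 to 58.7 CPM, erythroid and platelet markers to at most 0.4 CPM, and fibroblast and epithelial markers to 4.36 to 5.62 and 4.96 to 5.86 CPM. Monocyte and granulocyte markers summed to 21.6 to 25.8 CPM with DMSO and 68.7 to 77.1 CPM with fludarabine, with 2 of the 8 at 0 in every library; ITGAM and S100A9 accounted for most of this and are described with the surface genes.

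Of 17748 genes tested, 6663 (37.5%) were called at an adjusted p below 0.05, 3259 higher (18.4%) and 3404 lower (19.2%) with fludarabine. These shares are the background against which each gene list is read below. Calls with at least a 2-fold change numbered 1302 higher and 754 lower, and the median log2 fold change over all genes was 0.02. Scaling by library size alone, without the trimmed mean of M-values (TMM), moved that median to 0.13 and the split of calls from 48.9% higher to 61.8% higher, so small changes of broad gene sets depend on the scaling. Medians of the replication, damage repair, fludarabine handling, surface and both MHC lists, all between -0.05 and -0.02, were above 0 under that scaling. Values given below are TMM-normalised CPM in the 3 DMSO and then the 3 fludarabine libraries, and changes are log2 fold changes of fludarabine over DMSO ± standard error (n = 3 per group), with Benjamini-Hochberg adjusted p from edgeR's quasi-likelihood test.

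The plot of the share of each list that was called shows the outline: p53 targets, mitochondrially encoded genes, secreted inflammatory factors, immediate early factors and ATF4 targets lay at the top, and immunoglobulin, histone, glycolysis, B-cell and ribosomal protein genes at the bottom.

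**Figure D1:**
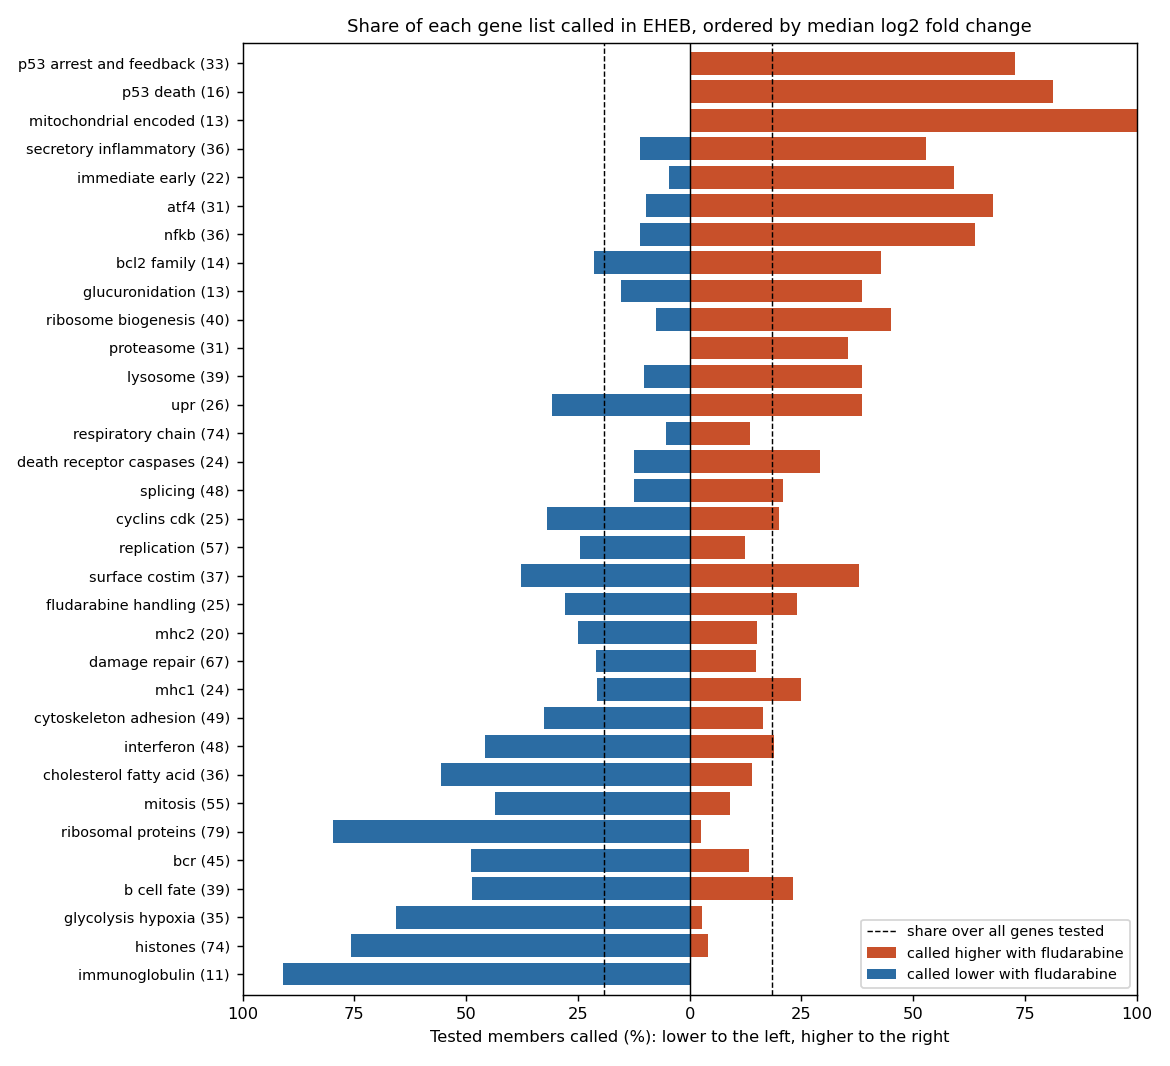
Share of the tested members of 33 gene lists called higher (right) or lower (left) with fludarabine in EHEB, in percent, ordered by the median log2 fold change of the list, with the number of members tested in brackets. Dashed lines mark the shares over all genes tested, 18.4% higher and 19.2% lower; all 13 mitochondrially encoded genes and 13 of 16 p53 death genes were called higher, and 10 of 11 immunoglobulin genes lower.

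Genes of the p53 response rose together. Of 33 p53 targets with roles in arrest, feedback, metabolism and repair, 24 were called higher and none lower, with a median log2 fold change of 1.19 against 0.02 over all genes. MDM2, the ubiquitin ligase that targets p53 for destruction (GRCh38 chromosome 12, 68808177 to 68845544, plus strand), stood at 935, 987 and 790.1 CPM with DMSO and at 2748, 2694 and 2828 CPM with fludarabine (1.61 ± 0.12, adjusted p = 1.94e-06). The groups were far apart, and MDM2 also had one of the 5 largest gains in CPM among protein-coding genes that were called and did not overlap between groups. PPM1D, a phosphatase that switches the damage signal off, rose from 47.5, 44.7 and 43.1 to 106, 124 and 110.3 CPM (1.33 ± 0.08, adjusted p = 3.42e-07).

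The largest increases on this list were those of stress-responsive secreted and kinase genes. GDF15, a stress-induced cytokine, was at 4.01, 3.72 and 5.4 CPM with DMSO and at 112, 106 and 103 CPM with fludarabine (4.61 ± 0.15, adjusted p = 7.12e-09). PLK2 rose from 10.8, 10.5 and 10 to 78.6, 91.5 and 86.1 CPM (3.03 ± 0.12), and PLK3 from 10.9, 12.1 and 12.1 to 51.7, 54.7 and 56.2 CPM (2.21 ± 0.12). Both encode polo-like kinases of the stress response, unlike the mitotic PLK1. The arrest gene GADD45A (1.74 ± 0.08), the ferredoxin reductase FDXR (1.57 ± 0.10), the mitophagy gene SPATA18 (1.69 ± 0.06) and the sestrin SESN1 (1.35 ± 0.06) rose with no overlap between groups.

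Repair genes under p53 control rose as well. XPC and DDB2, damage sensors of nucleotide excision repair, went from 106, 121 and 119 to 276, 273 and 283 CPM (1.27 ± 0.06) and from 56.2, 64.7 and 62.7 to 117, 115 and 117 CPM (0.93 ± 0.16). POLH, a translesion polymerase, and RRM2B, the p53-inducible ribonucleotide reductase subunit, rose by 1.45 ± 0.09 and 1.06 ± 0.06. The clamp PCNA stood at 154, 146 and 146 CPM with DMSO and at 495, 504 and 507 CPM with fludarabine (1.76 ± 0.05, adjusted p = 2.36e-09). PCNA is both a replication and a repair factor and a known p53 target, and it rose while most replication genes did not.

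CDKN1A, which encodes the cyclin-dependent kinase inhibitor p21 and is the classical p53 target, was not called, and its fludarabine libraries were far apart. It was at 656, 642 and 680.2 CPM with DMSO and at 1856, 569 and 1814 CPM with fludarabine (1.10 ± 0.46, adjusted p = 0.082). The first and the third were well above DMSO and the second was below it. The gene was called with DESeq2 (1.11, adjusted p = 0.0292), in the joint fit of 36 libraries (1.09, adjusted p = 0.0165) and without the second fludarabine library (1.47, adjusted p = 0.0131). It was also called in the fit of 18 libraries used below to compare lines (1.06 ± 0.37, adjusted p = 0.038). Such a spread was found in 616 of 10053 genes at or above 3 on the average log2 CPM scale (6.13%), which had more than a 2-fold range within DMSO or within fludarabine.

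**Figure D2:**
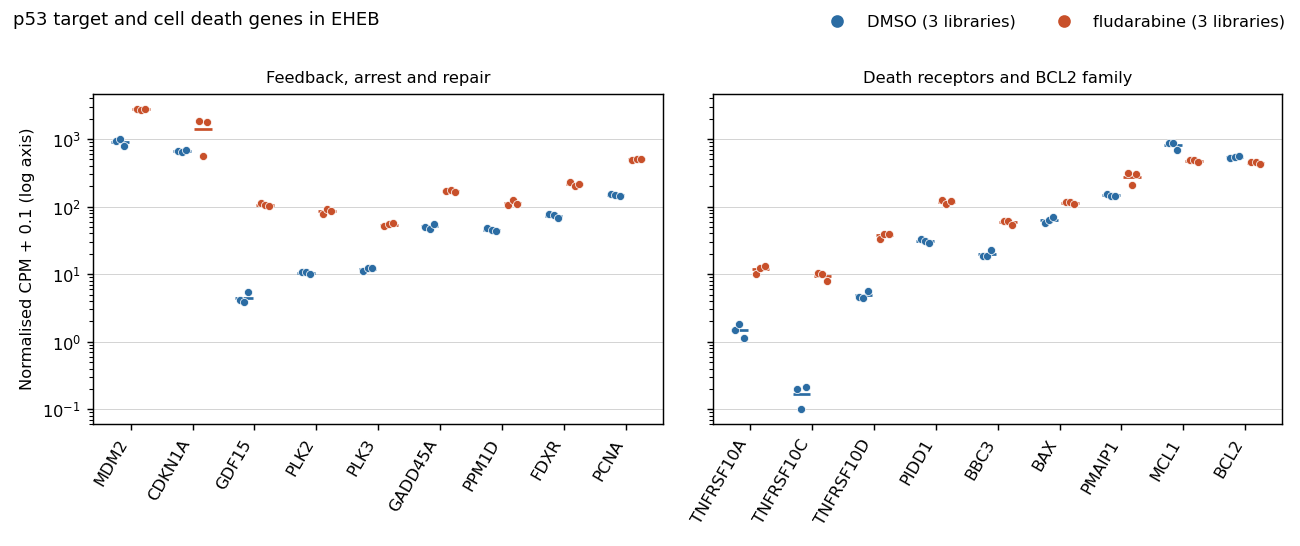
Normalised CPM plus 0.1 (log axis) of p53 target and cell death genes in the 3 DMSO (blue) and 3 fludarabine (orange) libraries of EHEB, with a line at each group mean. MDM2, GDF15, PLK2, PCNA and the TNFRSF10 receptors were higher in every treated library, whereas CDKN1A had 1 treated library at 569 CPM below the DMSO values and MCL1 and BCL2 were lower.

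Death-associated p53 targets rose in 13 of 16 cases and none fell, with a median of 1.10. Receptors for the death ligand TRAIL were prominent among them. TNFRSF10A was at 1.41, 1.72 and 1.02 CPM with DMSO and 10.1, 12.1 and 13.2 CPM with fludarabine (3.10 ± 0.54, adjusted p = 0.000923). The decoy receptor TNFRSF10C was nearly absent with DMSO, at 0.0989, 0 and 0.111 CPM, and at 10.3, 9.96 and 7.84 CPM with fludarabine (6.98 ± 0.75, adjusted p = 8.22e-05). The decoy TNFRSF10D rose from 4.45, 4.33 and 5.54 to 33.5, 39.6 and 39.7 CPM (2.98 ± 0.18), and the signalling receptor TNFRSF10B by 0.66 ± 0.05. Thus death and decoy receptors of this family were higher together, in every treated library.

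TP53I3, an oxidoreductase, rose from 8.98, 5.75 and 7.83 to 73, 63.2 and 56.3 CPM (3.09 ± 0.20), and PIDD1, a scaffold that activates caspase-2, from 33.2, 30.4 and 28.3 to 125, 111 and 121 CPM (1.96 ± 0.09, adjusted p = 4.16e-08). FAS, another death receptor, had the highest values with fludarabine, at 249, 268 and 266 CPM, against 206, 93.2 and 187 CPM with DMSO, but was not called (0.68 ± 0.30, adjusted p = 0.0995). APAF1, the apoptosome core, was also not called (0.24 ± 0.13, adjusted p = 0.158).

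Within the BCL2 family 6 of 14 genes rose and 3 fell. The BH3-only activators BBC3 (PUMA) and PMAIP1 (NOXA) rose, BBC3 from 18.7, 18.6 and 22.8 to 61.9, 60.7 and 53.5 CPM (1.55 ± 0.10, adjusted p = 5.28e-07) and PMAIP1 from 156, 145 and 143.4 to 310.5, 208 and 307 CPM (0.90 ± 0.12). The effector BAX rose by 0.84 ± 0.09. Survival genes went both ways. MCL1 fell from 868, 867 and 686 to 487, 484 and 461 CPM (-0.76 ± 0.10, adjusted p = 0.000148) and BCL2 from 532, 550.3 and 552 to 451, 451 and 434 CPM (-0.29 ± 0.04), while BCL2L1 rose from 84.7, 76.4 and 71.2 to 142.8, 128 and 144.35 CPM (0.84 ± 0.12) and BCL2A1 by 0.52 ± 0.08. The BH3-only gene BMF fell by 0.80 on the log2 scale. Among death receptor pathway genes and caspases 7 of 24 rose and 3 fell, with the inhibitor BIRC3 at 331, 333 and 269.7 CPM with DMSO and 593, 611 and 602 CPM with fludarabine (0.95 ± 0.12), and the inflammatory caspase CASP1 higher by 0.78 ± 0.04.

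Many mitotic transcripts fell, by modest amounts. Of 55 genes of mitosis and the G2/M phase, 24 were lower and 5 higher, with a median of -0.38. PLK1, the kinase that drives mitotic entry, was at 25.5, 30.2 and 22.6 CPM with DMSO and 12.5, 10.3 and 13.3 CPM with fludarabine (-1.12 ± 0.16, adjusted p = 0.000223). KIF20A, a kinesin of cytokinesis, fell from 20.9, 21 and 17.5 to 8.45, 8.28 and 10.5 CPM (-1.12 ± 0.15), and CDC20, an activator of the anaphase-promoting complex, from 28.5, 27.7 and 27.6 to 16.1, 13.7 and 15.3 CPM (-0.89 ± 0.09). These were among the strongest decreases of the list. In contrast, the securin gene PTTG1 rose from 45.3, 55.2 and 56.3 to 86.2, 88.2 and 89.4 CPM (0.75 ± 0.08) and the kinase subunit CKS2 by 0.59 ± 0.07.

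Mitotic genes are known to share the cell cycle genes homology region (CHR), a promoter element bound by the repressive DREAM complex in resting cells. The letters TTTGAA were searched on both strands of the 300 bases around each RefSeq gene start (250 before and 50 after, GRCh38.p14). They were present in 15.4% of 27305 promoters and in 35 of the 48 tested mitosis genes with an entry, 16 of 22 called lower and 3 of 4 called higher. To show what such a promoter looks like, the 120 bases before the start of 3 genes that fell are given 5′ to 3′ on the strand of the gene, with the match in capitals: PLK1 (chr16:23678769-23678888, plus strand), CDC20 (chr1:43358861-43358980, plus strand) and HMMR (chr5:163460512-163460631, plus strand), which encodes a spindle protein and fell by 0.83 on the log2 scale.
PLK1: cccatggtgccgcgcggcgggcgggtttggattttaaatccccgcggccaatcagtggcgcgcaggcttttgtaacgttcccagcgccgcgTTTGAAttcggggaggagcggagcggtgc
CDC20: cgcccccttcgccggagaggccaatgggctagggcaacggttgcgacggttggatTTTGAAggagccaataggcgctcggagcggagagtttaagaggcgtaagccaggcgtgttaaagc
HMMR: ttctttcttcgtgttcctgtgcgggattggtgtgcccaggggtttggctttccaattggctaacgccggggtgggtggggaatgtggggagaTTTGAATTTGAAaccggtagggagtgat

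In these windows the match lay 29 to 24 bases before the start in PLK1, 65 to 60 bases in CDC20 and, as 2 adjoining matches, 28 to 17 bases in HMMR. The genes that rose carried the letters about as often as those that fell, and a match is only a description of the sequence.

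Replication genes did not move as one group: 7 of 57 rose and 14 fell, with a median of -0.02. Under library size scaling the balance turned, to 12 higher and 9 lower. Beside PCNA, the thymidylate synthase TYMS rose from 104, 113 and 107 to 196, 214 and 208 CPM (0.93 ± 0.07, adjusted p = 1.8e-06) and the DNA ligase LIG1 from 29.6, 31 and 34.5 to 59, 58.6 and 61.7 CPM (0.92 ± 0.08). The primase subunit PRIM2 fell by 0.62 and the transcription factor E2F2 by 0.64 on the log2 scale, each without overlap of the groups.

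Clustered histone genes fell almost throughout, with 56 of 74 tested genes lower, 3 higher and a median of -1.003. These genes are transcribed in S phase, and their messages lack a poly(A) tail but are captured in libraries of ribosomal RNA-depleted total RNA such as these. HIST1H1D, a linker histone, was at 185.9, 201 and 187 CPM with DMSO and 65.8, 61.1 and 55.4 CPM with fludarabine (-1.65 ± 0.08, adjusted p = 7.49e-08), and the core histone HIST1H2BL fell from 35, 38.1 and 32.9 to 10.6, 10.7 and 10 CPM (-1.76 ± 0.09). Together the clustered histones took 0.398% to 0.406% of counts with DMSO and 0.218% to 0.239% with fludarabine. HIST1H3E and HIST3H2A were exceptions that rose, by 0.43 ± 0.10 and 1.09 ± 0.22. Near-identical copies in this family could share reads, so single histone values are less certain than the group.

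Regulators of the G1 phase changed in both directions, 5 of 25 higher, near the background share, and 8 lower, above it. Their median was 0.02, as over all genes. CDKN2B, which encodes the CDK4/6 inhibitor p15, rose from 2.52, 0.725 and 1.85 to 20.3, 20.3 and 17.7 CPM (3.52 ± 0.35, adjusted p = 1.5e-05), and the repressor E2F7, a p53-responsive member of its family, from 92.1, 79.7 and 74.7 to 296, 319.7 and 312 CPM (1.91 ± 0.07). CDKN1B, which encodes the inhibitor p27, went the other way, from 61.3, 58.4 and 57.9 to 28.5, 28.6 and 28.9 CPM (-1.04 ± 0.05). CCND2, the D-type cyclin of B cells, fell from 4266, 3965 and 3650 to 2960, 2690 and 2586 CPM (-0.53 ± 0.07, adjusted p = 0.000142), one of the 5 largest losses of CPM by the limits given for MDM2, and RB1 fell from 534, 647 and 465 to 329, 328 and 414 CPM (-0.62 ± 0.11).

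DNA damage signalling and repair genes outside the p53 lists were called near the background in both directions, 10 of 67 higher and 14 lower with a median of -0.04 (17 higher and 9 lower under library size scaling). The damage kinase ATM fell from 331, 384 and 314 to 183, 201 and 205 CPM (-0.81 ± 0.08, adjusted p = 1.78e-05) and BARD1, the partner of BRCA1, from 119, 116 and 74.2 to 48.6, 49.8 and 44.2 CPM (-1.12 ± 0.15). RAD51C, a recombination factor, rose by 0.94 ± 0.13.

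Genes that handle nucleosides and fludarabine itself were likewise split, 6 of 25 higher and 7 lower. DCK, the kinase that activates the drug, was at 35.3, 35.1 and 35.9 CPM with DMSO and 19.3, 19.9 and 20.2 CPM with fludarabine (-0.84 ± 0.08, adjusted p = 1.36e-05). The adenosine kinase ADK fell from 94.4, 76.5 and 87.5 to 45.7, 53.4 and 48.6 CPM (-0.81 ± 0.10), and the surface nucleotidase NT5E (CD73), which releases nucleosides from nucleotides outside the cell, from 20.9, 24.7 and 26 to 11.3, 11.5 and 11.2 CPM (-1.07 ± 0.09). Levels of the activating kinase were thus lower in all treated libraries. DCK overlaps MOB1B in the annotation on the same strand, so reads could be shared between them. Purine nucleoside phosphorylase PNP rose from 55, 47 and 44.3 to 98.4, 97.6 and 102 CPM (1.02 ± 0.09), the exporter ABCC5 by 0.84 ± 0.14 and the nucleoside diphosphate kinase NME1 by 1.303 ± 0.14, although NME1 shares exons with a readthrough gene. RRM2, the replicative ribonucleotide reductase subunit, was not called, at 44, 53.3 and 56.3 CPM with DMSO and 48.2, 96.1 and 50.8 CPM with fludarabine (0.35 ± 0.23, adjusted p = 0.275).

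Immunoglobulin expression had the lowest median of all lists. Of 11 genes tested, 10 were lower and none higher, with a median of -1.80. JCHAIN, the joining chain of polymeric antibodies (GRCh38 chromosome 4, 70655541 to 70681817, minus strand), was at 811, 589 and 693 CPM with DMSO and at 24, 23.4 and 22.9 CPM with fludarabine (-4.90 ± 0.12, adjusted p = 1.74e-09), the largest decrease on the log2 scale among called protein-coding genes whose average log2 CPM was 1 or more and whose groups did not overlap. IGHG4 fell from 381, 387 and 398 to 75.5, 70.3 and 108 CPM (-2.20 ± 0.15), although constant region genes are close copies and the reads may be divided among them. The plasma cell receptor TNFRSF17 (BCMA) went from 56.6, 91.3 and 53.1 to 9.38, 12.8 and 13.1 CPM (-2.51 ± 0.21) and the memory B-cell receptor CD27 from 34.4, 35.2 and 34.7 to 3.85, 3.5 and 2.78 CPM (-3.37 ± 0.11, adjusted p = 8.41e-09). CD27 overlaps an antisense gene and TAPBPL, and strand was not stated for the counting.

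B-cell receptor signalling and B-cell transcription factors fell with them. Of 45 receptor signalling genes 22 were lower and 6 higher (median -0.41), and of 39 B-cell and plasma-cell transcription factors 19 were lower and 9 higher (median -0.45). The Src-family kinase BLK fell from 199, 219 and 222 to 71.6, 64.4 and 61.4 CPM (-1.70 ± 0.07, adjusted p = 2.41e-08), the adaptor PIK3AP1 from 72.9, 65.8 and 61.9 to 23, 22.8 and 20.9 CPM (-1.59 ± 0.09) and the kinase PRKCB, which links the receptor to NF-kB, from 317, 316 and 311 to 125, 111 and 106 CPM (-1.46 ± 0.07). Receptor component CD79A and the inhibitory receptor CD22 fell by 1.19 and 1.42 on the log2 scale, and CD20 (MS4A1), the target of rituximab, by 0.71. All 6 B-cell markers were lower. The phosphatase PTPN22 rose, by 0.61 ± 0.07.

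Among the transcription factors, IKZF2 fell from 1275, 1312 and 1037 to 355, 426 and 302 CPM (-1.74 ± 0.18), BHLHE41 from 12, 14.6 and 14.2 to 4.07, 2.39 and 3.87 CPM (-1.98 ± 0.19) and the quiescence and trafficking factor KLF2 from 3.26, 3.53 and 2.51 to 0.464, 0.777 and 0.45 CPM (-2.45 ± 0.22). Named after their values were seen, the B-lineage factors PAX5 and EBF1 and the plasma cell factors IRF4 and PRDM1 had log2 fold changes of -0.38, -0.45, -0.95 and -0.55. ID2, an inhibitor of E proteins, rose from 8.33, 7.61 and 7.31 to 19.9, 21.4 and 25 CPM (1.51 ± 0.12), and BATF by 0.82 ± 0.08. The highest log2 fold changes of the list were those of 2 factors at low levels, also named after their values were seen. BCL6, the germinal centre repressor, rose from 0.668, 0.628 and 0.956 to 3.57, 3.83 and 3.57 CPM (2.28 ± 0.25, adjusted p = 2.5e-05). KLF4 was at 0, 0.145 and 0.133 CPM and then 1.46, 0.987 and 0.927 CPM (3.54 ± 1.06, adjusted p = 0.0217), a call that was lost in the joint fit of 36 libraries (adjusted p = 0.0582) and without the first DMSO, the third DMSO or the first fludarabine library (adjusted p = 0.0615, 0.0534 and 0.0683).

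Surface genes of activation and costimulation were balanced, 14 of 37 higher and 14 lower. Adhesion and cytoskeleton genes were lower in 16 of 49 cases and higher in 8. The integrin chains ITGA4, part of VLA-4, and ITGAL, part of LFA-1, fell from 131, 136 and 128 to 36.1, 33.5 and 31.9 CPM (-1.96 ± 0.06, adjusted p = 7.04e-09) and from 158, 155 and 140.5 to 55.5, 47.3 and 46.1 CPM (-1.61 ± 0.09). Another integrin chain, ITGAM, rose from 19.2, 23.9 and 22.4 to 62.8, 52.6 and 56.8 CPM (1.39 ± 0.10), and the calgranulin S100A9 from 2.32, 2.83 and 2.25 to 12.4, 11.8 and 9.9 CPM (2.20 ± 0.24). Both are markers of myeloid cells, and with 2 of the 8 myeloid markers at 0 in all 6 libraries a part of other cells in this rise was not tested. MHC class II genes were called about as often as genes in general, with 3 of 20 higher and 5 lower, as were class I genes with 6 of 24 higher and 5 lower.

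**Figure D3:**
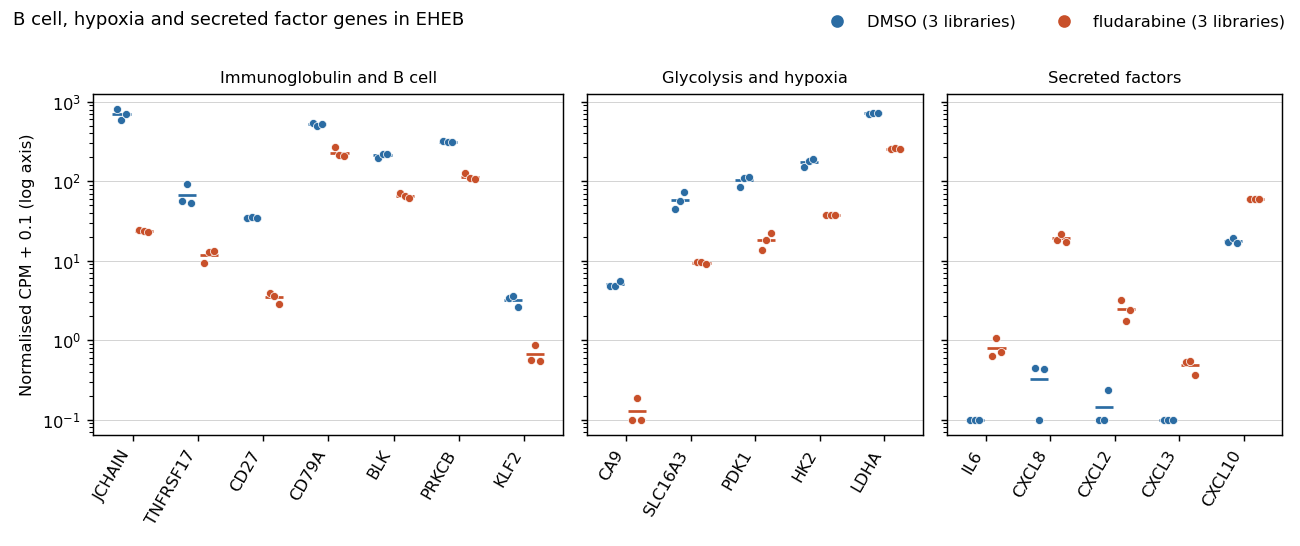
Normalised CPM plus 0.1 (log axis) of B-cell, glycolysis and hypoxia, and secreted factor genes in the 3 DMSO (blue) and 3 fludarabine (orange) libraries of EHEB, with a line at each group mean. JCHAIN lay between 589 and 811 CPM with DMSO and between 22.9 and 24 CPM with fludarabine, LDHA fell from 708 or more to 259 CPM or less, and CXCL8 and CXCL10 were higher in every fludarabine library.

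NF-kB is a family of transcription factors that drives survival and inflammatory genes in activated B cells. Of 36 subunits and targets 23 rose and 4 fell (median 0.49). IER3, an early response gene, rose from 54, 51.7 and 53.8 to 226, 206 and 203 CPM (1.99 ± 0.07, adjusted p = 1.1e-08), the maturation marker CD83 from 7.57, 6.19 and 6.89 to 29.9, 34.4 and 31.8 CPM (2.22 ± 0.11) and TNFAIP2 from 52.1, 45.8 and 54 to 151, 151 and 147 CPM (1.56 ± 0.09). The inhibitor NFKBIA, named after its values were seen, rose by 0.40 ± 0.05. NFKB1, which encodes the precursor of a subunit, fell by 0.26 and lymphotoxin beta (LTB) by 1.04 on the log2 scale. Immediate early factors rose in 13 of 22 cases and fell in 1 (median 0.65). FOSL2, an AP-1 subunit, went from 1.19, 1.02 and 1.16 to 13.1, 12.7 and 12.2 CPM (3.50 ± 0.30), while ATF3 and NR4A1 rose by 1.92 ± 0.28 and 1.93 ± 0.40.

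Inflammatory and senescence-associated genes, most of them encoding secreted factors, rose in 19 of 36 cases and fell in 4 (median 1.003, and 0.50 to 1.11 over the alternatives, which test different numbers of genes). The list also holds LMNB1 and HMGB2, which do not encode secreted inflammatory factors. LMNB1 is among the 4 that fell (-0.84), and HMGB2 was not called. CXCL8, which attracts neutrophils, was at 0.346, 0 and 0.333 CPM with DMSO and 18.2, 21.6 and 17.1 CPM with fludarabine (6.36 ± 0.58, adjusted p = 2.57e-05). CXCL2 was at 0, 0 and 0.133 CPM with DMSO and 3.07, 1.64 and 2.33 CPM with fludarabine (5.56 ± 0.86), and its close copy CXCL3, with which it may share reads, was at 0 in every DMSO library and at 0.428, 0.449 and 0.265 CPM with fludarabine, at least 5.35-fold higher against a floor of 3 estimated counts per library. Such bounds depend on the count unit. If 8/3 counts stand for 1 read, a floor of 3 reads is 8 counts, and the bound for CXCL3 falls to 2.01-fold. IL6 was also at 0 with DMSO and at 0.535, 0.957 and 0.609 CPM with fludarabine, at least 9.84-fold higher, or 3.69-fold with the floor of 8 counts (adjusted p = 0.00323). These cytokines were thus detected in the treated libraries at low levels.

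Promoters of this group are a classical setting of NF-kB sites. The letters GGANTTTCC were searched on both strands of the same 300-base windows. They occurred in 1.64% of all promoters, in 6 of 24 tested members of the secreted list with an entry, in 5 of 13 called higher and in 0 of 4 called lower. Those 4 include LMNB1. Such counts describe sequence only, and a part of NF-kB in the rise was not tested. The 120 bases before the start are shown 5′ to 3′ on the gene's strand, match in capitals, for 4 genes that rose: CXCL8 (chr4:73740449-73740568, plus strand), CXCL2 (chr4:74099196-74099315, minus strand), CXCL3 (chr4:74038690-74038809, minus strand) and IL6 (chr7:22727080-22727199, plus strand).
CXCL8: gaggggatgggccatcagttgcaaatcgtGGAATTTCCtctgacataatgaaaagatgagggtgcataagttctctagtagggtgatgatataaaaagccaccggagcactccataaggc
CXCL2: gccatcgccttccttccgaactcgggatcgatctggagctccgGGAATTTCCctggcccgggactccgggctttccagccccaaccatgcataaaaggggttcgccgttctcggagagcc
CXCL3: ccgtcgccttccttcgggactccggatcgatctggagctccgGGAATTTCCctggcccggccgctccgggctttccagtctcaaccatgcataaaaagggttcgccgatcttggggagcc
IL6: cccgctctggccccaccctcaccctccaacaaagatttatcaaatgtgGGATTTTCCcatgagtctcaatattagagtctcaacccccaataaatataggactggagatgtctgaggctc

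The matches began 91, 77, 78 and 72 bases before the start of CXCL8, CXCL2, CXCL3 and IL6 on the strand of the gene in each of them.

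Interferon-stimulated genes fell in 22 of 48 cases and rose in 9 (median -0.19; under library size scaling 19 fell and 13 rose, median -0.08). OAS1, a double-stranded RNA sensor, was at 124, 121 and 125 CPM with DMSO and 68.1, 65.1 and 66.7 CPM with fludarabine (-0.89 ± 0.05, adjusted p = 1.74e-07). CXCL10, XAF1 and IFIT3 went against this trend. CXCL10 rose from 16.9, 19.5 and 16.7 to 59, 59.7 and 60.1 CPM (1.75 ± 0.07), XAF1, which antagonises the caspase inhibitor XIAP, by 1.05 ± 0.12, and the antiviral gene IFIT3 by 0.83 ± 0.05.

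Glycolysis and hypoxia response genes fell. Of 35 genes 23 were lower and 1 higher (median -0.71). The lactate exporter SLC16A3 went from 44.9, 56.7 and 72.5 to 9.49, 9.42 and 9 CPM (-2.64 ± 0.15, adjusted p = 1.79e-07), the phosphofructokinase regulator PFKFB4 from 30.4, 43.4 and 49.5 to 7.35, 6.52 and 7.28 CPM (-2.54 ± 0.16) and PDK1, a kinase that inhibits pyruvate dehydrogenase, from 84.5, 110.3 and 113 to 13.6, 18.2 and 22 CPM (-2.51 ± 0.16). Enzymes of the main path followed. HK2, the first enzyme of the pathway, fell from 149.6, 179.8 and 190.05 to 38, 38 and 38.1 CPM (-2.19 ± 0.08), LDHA from 708, 714 and 719 to 256, 259 and 256 CPM (-1.47 ± 0.08), and GAPDH, often used as a reference gene, from 4275, 4662 and 4489 to 2823, 2649 and 2717 CPM (-0.71 ± 0.07). CA9, a carbonic anhydrase induced by hypoxia, was at 4.67, 4.76 and 5.42 CPM with DMSO and 0, 0.0897 and 0 CPM with fludarabine (adjusted p = 0.000188). NDRG1 was the exception and rose by 0.94 ± 0.07.

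Hypoxia-inducible factor binds the core letters ACGTG, which occurred on either strand in 21.6% of all promoters, in 13 of 30 tested list members with an entry and in 12 of 21 called lower. The core is short and common, so matches are shown as sequence only. The 120 bases before the start of 4 genes that fell are given 5′ to 3′ on the gene's strand, with the core or its reverse complement in capitals: CA9 (chr9:35673808-35673927, plus strand), HK2 (chr2:74834007-74834126, plus strand), LDHA (chr11:18394443-18394562, plus strand) and GAPDH (chr12:6535144-6535263, plus strand).
CA9: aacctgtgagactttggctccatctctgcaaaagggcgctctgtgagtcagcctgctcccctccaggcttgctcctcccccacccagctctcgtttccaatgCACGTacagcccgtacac
HK2: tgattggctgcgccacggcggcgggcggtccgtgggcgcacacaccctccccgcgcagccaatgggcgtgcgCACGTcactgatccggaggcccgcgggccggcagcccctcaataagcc
LDHA: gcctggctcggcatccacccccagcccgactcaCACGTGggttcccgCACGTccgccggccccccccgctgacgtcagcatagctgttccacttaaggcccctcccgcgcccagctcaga
GAPDH: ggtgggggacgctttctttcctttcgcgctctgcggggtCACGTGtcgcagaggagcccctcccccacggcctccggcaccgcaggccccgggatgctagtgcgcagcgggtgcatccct

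The core stood on the opposite strand in CA9 (18 to 14 bases before the start) and HK2 (48 to 44 bases). LDHA held 3 matches, of which 2 overlap on opposite strands 87 to 82 bases before the start, and GAPDH held 2 overlapping matches 81 to 76 bases before it.

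Lipid synthesis genes fell in 20 of 36 cases and rose in 5 (median -0.23, and -0.13 under library size scaling). The desaturase SCD was at 218, 212 and 204 CPM with DMSO and 57, 56.6 and 60.6 CPM with fludarabine (-1.86 ± 0.06, adjusted p = 7.04e-09). Lanosterol synthase LSS rose by 0.84 ± 0.07, so the list did not move as a whole.

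Cytosolic ribosomal protein genes fell in 63 of 79 cases and rose in 2, each by a small amount (median -0.39, and -0.28 with 50 lower under library size scaling). RPS3A was at 1380, 1511 and 1442 CPM with DMSO and 996, 753 and 874 CPM with fludarabine (-0.72 ± 0.10), RPL22 fell by 0.76 on the log2 scale, and the elongation factor EEF1A1 from 15254, 13830 and 13330 to 11735, 10801 and 11419 CPM (-0.32 ± 0.07, adjusted p = 0.00308). The loss of EEF1A1 was the largest in CPM among protein-coding genes that were called and did not overlap between groups. Genes of ribosome assembly did not follow. Of 40, 18 rose and 3 fell (median 0.23), with RRP12 at 52, 52.3 and 49.5 and then 100.4, 99.9 and 100.4 CPM (0.97 ± 0.06) and NOP14 higher by 0.70 ± 0.09, while nucleophosmin NPM1 fell by 0.35 on the log2 scale.

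All 13 protein genes of the mitochondrial genome rose (median 1.04). MT-CO1, a subunit of cytochrome c oxidase, was at 12753, 11195 and 9516 CPM with DMSO and 15784, 17078 and 17633 CPM with fludarabine (0.59 ± 0.13, adjusted p = 0.00481), the largest gain of CPM by the limits given for MDM2, followed in kind by MT-CO3 (0.66 ± 0.13) and MT-ATP6 (1.42 ± 0.28). Mitochondrial genes took 1.27% to 1.66% of counts with DMSO and 2.28% to 2.66% with fludarabine. Nuclear genes of the respiratory chain were called higher in 10 of 74 cases and lower in 4, shares below the background, with a median of 0.07 (25 higher and 3 lower under library size scaling). The share of mitochondrial reads also serves as a sign of RNA or cell quality, and its part in these results was not tested.

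Genes of the ATF4 response, which cells use under amino acid shortage and other stress, rose in 21 of 31 cases and fell in 3 (median 0.62). CHAC1, which degrades glutathione, went from 1.43, 1.62 and 1.76 to 8.85, 6.82 and 7.57 CPM (2.27 ± 0.15, adjusted p = 5.81e-07) and the amino acid transporter SLC7A5 from 13.8, 10.7 and 12.4 to 30.5, 30.1 and 36.4 CPM (1.40 ± 0.16). CBS, an enzyme of cysteine synthesis, was at 0 in every DMSO library and at 1.57, 2.36 and 2.07 CPM with fludarabine, at least 28.1-fold higher against the floor of 3 counts and 10.5-fold against that of 8. VLDLR fell by 1.84 on the log2 scale. Chaperones and the unfolded protein response were mixed, 10 of 26 higher and 8 lower: HYOU1 rose from 342, 344 and 334 to 783, 707 and 760.2 CPM (1.14 ± 0.08) and MANF and CALR by 0.92 ± 0.09 and 0.88 ± 0.13, whereas the sensor kinase EIF2AK3 (PERK) fell from 114, 123 and 94.6 to 58.1, 40 and 54.4 CPM (-1.12 ± 0.14).

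Lysosome and autophagy genes rose in 15 of 39 cases and fell in 4. The autophagy receptor SQSTM1 (p62) rose from 235, 239.4 and 245 to 489, 529 and 520.4 CPM (1.10 ± 0.06, adjusted p = 1.28e-07) and the acid glucosidase GAA from 7.52, 6.84 and 7.43 to 21.9, 15.2 and 24.5 CPM (1.5003 ± 0.19), while UVRAG fell from 153, 148 and 148 to 74.8, 70.2 and 76.8 CPM (-1.02 ± 0.05). Proteasome subunits were higher in 11 of 31 cases (18 under library size scaling) and lower in none, and splicing factors higher in 10 of 48 and lower in 6, near the background (15 and 1 under library size scaling). Of 13 glucuronidation genes tested 5 rose and 2 fell. SLC35D1, which carries UDP-glucuronic acid into the endoplasmic reticulum, rose by 0.63 ± 0.06. UGT2B17, the glucuronosyltransferase studied in these lines, was at 65.8, 62.3 and 58.5 CPM with DMSO and 66, 68.4 and 66.9 CPM with fludarabine, and was called under library size scaling (0.22, adjusted p = 0.0465) but not with TMM (0.11 ± 0.07, adjusted p = 0.28). The paper reports, from RT-qPCR, that the drug raised this transcript significantly in EHEB, which is another measure than these counts.

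Genes with the largest fold increases were mostly near silence in DMSO. AREG, the growth factor amphiregulin, was at 0 in the DMSO libraries and 8.31, 10.3 and 10.1 CPM with fludarabine, and the phosphodiesterase PDE4C at 0 and 6.28, 10.1 and 12.3 CPM, at least 134.95-fold and 134.74-fold higher against the floor of 3 counts and 50.6-fold and 50.5-fold against that of 8. RASAL1, a Ras inhibitor, went from 0, 0 and 0.111 to 14.3, 21.5 and 16.9 CPM (8.69 ± 0.77). SORCS2 (7.89 ± 0.52), PLXNB3 (7.86 ± 0.79), SERPINB7 (7.31 ± 0.97) and MYT1 (6.38 ± 0.75) behaved alike, with at most 0.272 CPM in any DMSO library and at least 6.78 CPM in every treated one. In all, 106 genes called higher had no count in DMSO. KRT17, a keratin, was well expressed and rose from 177, 190.5 and 185.4 to 825, 834 and 791 CPM (2.15 ± 0.07), and the chaperone HSPA8 from 1250, 1160 and 1046 to 1980, 1722 and 1747 CPM (0.66 ± 0.09).

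By the same limits on level and overlap, the largest falls after JCHAIN were those of the small GTPase RAB37, from 8.83, 9.09 and 8.87 to 0.464, 0.239 and 0.291 CPM (-4.76 ± 0.50), EML5 (-4.31 ± 0.45) and the ligand BMP6 (-3.88 ± 0.56), although EML5 and BMP6 each overlap an abundant gene on the opposite strand and were counted without a stated strand. ZNF395, a zinc finger factor, fell from 46.1, 60.9 and 63.9 to 5.85, 5.23 and 6.94 CPM (-3.24 ± 0.15). LAPTM5, a lysosomal membrane protein of blood cells, fell from 3950, 3816 and 3535 to 2349, 2245 and 2375 CPM (-0.70 ± 0.07), among the 5 largest losses of CPM. Of 1267 long noncoding RNAs tested, 161 rose and 109 fell, shares below the 18.4% and 19.2% over all genes tested.

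To see which of these responses differ from those of the other lines, the fludarabine response of EHEB was tested against that of JVM2 and of MEC1 in 1 fit of 18 libraries, with the same dose of 50 µM. Exposure was 96 h in EHEB, 72 h in JVM2 and 48 h in MEC1, so line, time and p53 state cannot be told apart. Of 19286 genes, the response of EHEB was called different from that of JVM2 in 4285 (22.2%), above it in 1858 (9.63%) and below it in 2427 (12.6%). Against MEC1 it differed in 5664 (29.4%), above in 2397 (12.4%) and below in 3267 (16.9%). Changes of EHEB in this fit can differ slightly from those above because the libraries share another estimate of spread and scaling.

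The fall of mitotic genes was much smaller in EHEB than in JVM2. For 55 of 55 mitosis genes the response of EHEB lay above that of JVM2 with a call, and this count stayed at 55 under each alternative run. Medians over the list were -0.42 in EHEB, -2.86 in JVM2 and -0.02 in MEC1. PLK1 in JVM2 went from 59.6 ± 7.99 to 1.95 ± 0.403 CPM (SD, n = 3), a change of -4.93 ± 0.17 against -1.16 in EHEB, and the difference of the responses was 3.77 ± 0.22 (adjusted p = 5.38e-09). CDC20 differed by 3.93 ± 0.16. Against MEC1, the response of EHEB was below in 23 mitosis genes and above in 5. Of 57 replication genes 35 were above JVM2 and 2 below. Histone medians were -1.02 in EHEB, -1.57 in MEC1 and -2.29 in JVM2, and of 77 genes 52 were above JVM2 and none below, and 39 above MEC1 and 2 below.

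Interferon genes separated EHEB from both other lines. In 43 of 48 the response of EHEB was below that of JVM2 and in none above it, and against MEC1 34 were below and 2 above. Within each line 39 were called higher and 2 lower in JVM2, 33 higher and 4 lower in MEC1, and 8 higher and 20 lower in EHEB, with medians of 1.26, 0.53 and -0.23. The responses of OAS1 differed by -0.999 ± 0.08 from JVM2 (adjusted p = 2.48e-07) and by -0.83 ± 0.08 from MEC1 (adjusted p = 1.54e-06). Even IFIT3, which rose in EHEB, rose by less than in JVM2 (difference -1.97 ± 0.10).

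**Figure D4:**
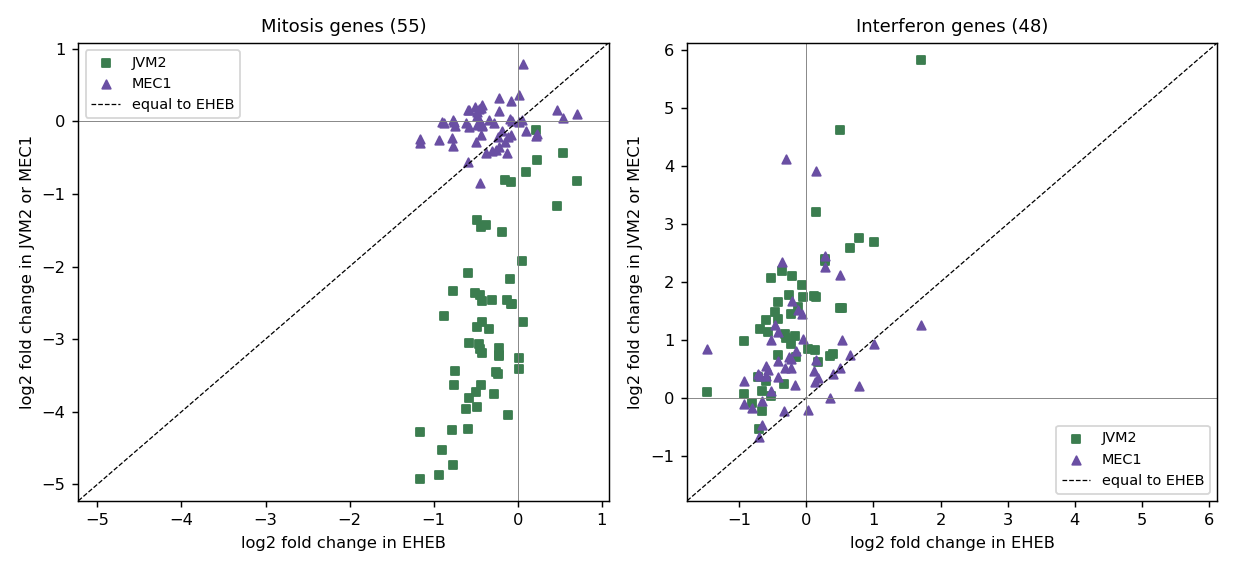
Log2 fold change with fludarabine in EHEB (x axis) against that in JVM2 (green squares) or MEC1 (purple triangles) for 55 mitosis and 48 interferon genes; the dashed line marks equal change. All mitosis genes of JVM2 lie below the line, since each fell there and had a lower log2 fold change than in EHEB, where 5 were called higher. Most interferon genes of both lines lie above the line.

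p53 targets responded in EHEB with a median near that of JVM2 and above that of MEC1, the line with mutated p53. Medians of the arrest and feedback list were 1.14 in EHEB, 1.20 in JVM2 and 0.28 in MEC1. In MEC1 16 of these 33 genes were called higher and 8 lower, against 24 and 1 in EHEB and 27 and 1 in JVM2. The gene called lower in EHEB in this fit was BTG2 (-0.14). Of 16 death genes, 5 were higher and 2 lower in MEC1, against 12 and 0 in EHEB and 13 and 0 in JVM2. Against MEC1 20 of 33 genes were called above and 5 below, and 9 of 16 death genes above and 1 below; against JVM2 the counts were 7 above and 9 below, and 4 above and 3 below. MDM2 was not called in MEC1 (257 ± 13.3 to 283 ± 13.6 CPM, SD, n = 3, log2 fold change 0.14 ± 0.09), and PCNA was at 346 ± 9.28 and 348 ± 20.02 CPM there, so that the responses differed by 1.43 ± 0.13 and 1.71 ± 0.07. BBC3 fell in MEC1 by 1.09 on the log2 scale, and its response differed by 2.60 ± 0.13 (adjusted p = 2.13e-09). Compared with JVM2, BBC3 and the decoy receptor TNFRSF10D rose more in EHEB, by 0.87 ± 0.13 and 1.35 ± 0.19, and PCNA rose less, with a difference of -0.57 ± 0.07.

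For ATF4 genes the response of EHEB lay above those of the other lines more often than below: 13 of 31 were above JVM2 and 3 below, and 21 above MEC1 and 1 below, with medians of 0.57, 0 and -0.59. A gene without counts in a line had a fitted change of 0 there and entered the median as such. The JVM2 median was exactly 0. SLC7A5 fell in JVM2 and MEC1 and rose in EHEB, with differences of 1.74 ± 0.14 and 1.81 ± 0.14. Loss of the J chain was deepest in EHEB. JCHAIN fell from 735 ± 98.8 to 154 ± 7.27 CPM in JVM2 and from 383 ± 8.96 to 198 ± 14.2 CPM (SD, n = 3) in MEC1, and the responses differed by -2.68 ± 0.15 and -3.99 ± 0.15. Not all B-cell genes followed: CD79A fell less in EHEB than in JVM2, with a difference of 0.69 ± 0.12. Ribosomal protein genes fell less in EHEB, with 32 of 79 above JVM2, 50 above MEC1 and none below either. Glycolysis and hypoxia genes had close medians, -0.76 in EHEB, -0.86 in JVM2 and -0.72 in MEC1, with 5 of 35 above and 9 below JVM2, and 6 above and 12 below MEC1. For mitochondrially encoded genes the medians were 1.00, 0.88 and 0.72.

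**Figure D5:**
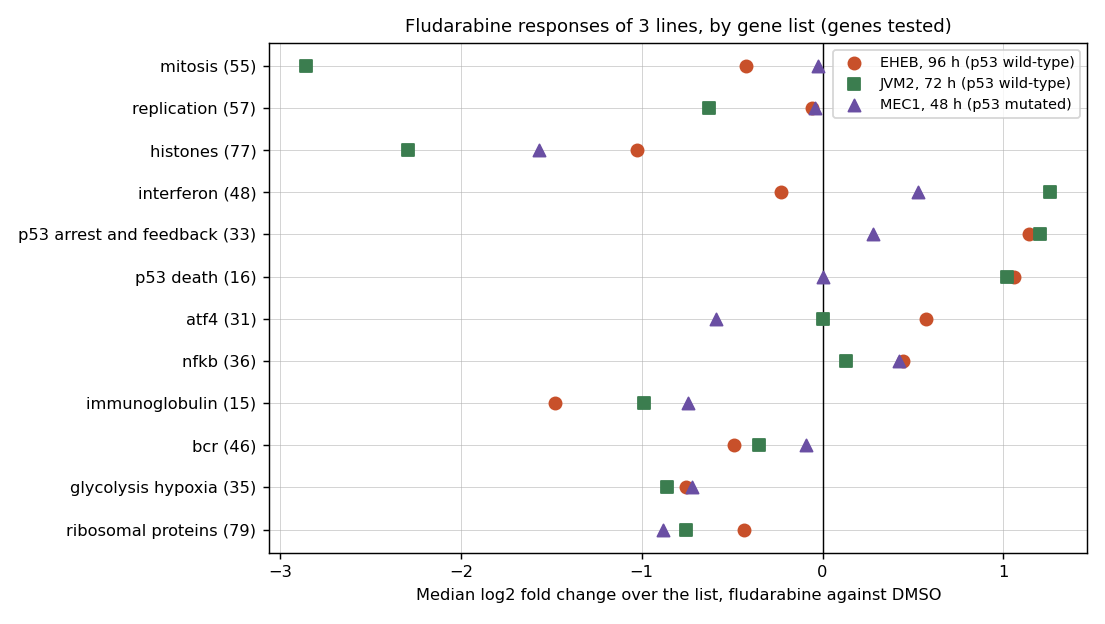
Median log2 fold change with fludarabine over 12 gene lists in EHEB (orange circles, 96 h), JVM2 (green squares, 72 h) and MEC1 (purple triangles, 48 h), with the number of genes in brackets. Genes without counts in a line enter its median as 0. The MEC1 median of the p53 death list and the JVM2 median of the ATF4 list are exactly 0. For mitosis EHEB (-0.42) lies closer to MEC1 (-0.02) than to JVM2 (-2.86), although 23 of 55 genes were called below MEC1 and 5 above. EHEB lies near JVM2 for the p53 lists, below both other lines for interferon genes and above both for ATF4 genes.

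Values of the same genes with the kinase inhibitors are given beside those of fludarabine; all 3 comparisons share the DMSO libraries, and the inhibitor libraries carry a separate run of library numbers without a DMSO library. The log2 fold change of MDM2 was 1.61 with fludarabine, 0.03 with ibrutinib and -0.15 with idelalisib, that of GDF15 was 4.61, -0.53 and -1.12, and that of PCNA 1.76, -0.04 and -0.83. In the same order JCHAIN was at -4.90, -0.55 and -0.12, and CD27 at -3.37, -0.05 and 0.83. HK2 was at -2.19, -1.95 and -2.27, LDHA at -1.47, -1.83 and -2.65, PFKFB4 at -2.54, -2.51 and -2.80, and SCD at -1.86, -1.33 and -2.03. The p53 targets and B-cell genes named here had their largest absolute values with fludarabine. Genes were named largely for their fludarabine change, which favours that ranking in advance, so it does not measure specificity for a drug. The glycolysis genes and SCD had large negative values with each agent.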

How the data were processed

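Total RNA of 36 cell line libraries was depleted of ribosomal RNA and sequenced. According to the methods and the labels, the authors trimmed reads with Trimmomatic, aligned them to GRCh38 with HISAT2 v2.1 and assigned them to Ensembl genes with StringTie v1.3.4. For strand, read length and Ensembl release the sources used here give nothing. The authors deposited 1 table of estimated counts per gene symbol from StringTie, in whole numbers and not normalised. Low values clustered at 1, 3 and 6 (3 occurred 6356 times and 2 occurred 3890 times in the 6 libraries), so a count may stand for less than 1 read. Of 37550 entries, 1 without a symbol, with 0.00384% of counts, was left out. Gene positions and types came from GENCODE 44 and promoters from RefSeq, matched by current or older symbol for 99.6% of symbols.

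The main test was edgeR 4.0.16 (R 4.3.3) with TMM scaling, filterByExpr (minimum count 10, total 15) and a quasi-likelihood fit of the 12 EHEB libraries with 8 residual degrees of freedom, Benjamini-Hochberg adjusted over all genes and called below 0.05. Standard errors are the log2 fold change divided by the square root of F. Responses were compared between lines by an interaction term in 18 libraries. Alternatives were library size scaling, DESeq2 1.42.0, no filter, voom in limma 3.58.1, a mean of at least 5 CPM, a fit of 6 libraries, a fit of all 36, each EHEB library left out and counts divided by 8/3. Fits were tested on simulated data. Depths over the 36 libraries ran from 26590705 to 53538925 counts. The floor of 3 counts per library was a fixed setting, turned into CPM with the scaled sizes of the EHEB libraries, and floors cover counting error only. Named genes were UGT2B17, the 10 largest rises and falls, the 5 largest gains and losses of CPM, up to 3 per list and direction (all called and at 1 or more in average log2 CPM, and the largest changes also protein-coding without overlap between groups), all members tested of 5 lists, the largest differences between lines and the genes whose promoters are shown; the text names a subset, others are marked, and some that met the rule are not reported here. Members and lists were chosen with earlier results of these data known.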

Additional observations from a re-analysis of the deposited data

Results flagged for a closer look

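The results below are differences between the response of EHEB and that of another line, for genes chosen for the text and not ranked by size. Each is a log2 fold change in EHEB minus that in the other line. All were called by edgeR's interaction test over 18 libraries. Line, exposure time and p53 state cannot be told apart in them. In all, 4285 genes differed from JVM2 and 5664 from MEC1.

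For mitotic genes the fall was smaller in EHEB than in JVM2, with a difference of 3.77 for PLK1, 3.93 for CDC20 and 3.12 for KIF20A. For interferon genes the response of EHEB was the lower one, with a difference of -0.999 (JVM2) and -0.83 (MEC1) for OAS1 and -1.97 (JVM2) for IFIT3. For p53 targets the response of EHEB was above that of MEC1, by 1.43 for MDM2, 1.71 for PCNA, 1.56 for PIDD1, 2.60 for BBC3, 2.94 for TNFRSF10D and 2.38 for TP53I3. Of these, BBC3 fell in MEC1, and MDM2, PCNA and TNFRSF10D were not called there. Against JVM2 the difference was -0.57 for PCNA, 0.87 for BBC3, 1.35 for TNFRSF10D and 2.23 for GDF15.

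Among B-cell genes the differences were -2.68 (JVM2) and -3.99 (MEC1) for JCHAIN, and against MEC1 -2.66 for CD27 and -1.65 for PRKCB. These chosen genes all lie on the same side. Of 46 B-cell receptor signalling genes, 8 were called above JVM2 and 16 below, and 4 above MEC1 and 23 below. CCND2 differed by -0.88 from JVM2 and -2.16 from MEC1, since it fell in EHEB and was at 0.31 in JVM2 and 1.59 in MEC1. For stress genes the response of EHEB was above those of JVM2 and MEC1, by 2.49 and 2.997 for FOSL2, 1.67 and 2.66 for CHAC1, and 1.74 and 1.81 for SLC7A5, which fell in both other lines, while CHAC1 fell in MEC1. HYOU1 differed by 1.23 from MEC1. SLC16A3 fell further in EHEB than in JVM2, with a difference of -1.79.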

How the results depend on the processing

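The number of genes called in EHEB, 6663, was 7141 with DESeq2, 6917 with limma-voom, 6839 with library size scaling, 6036 without a filter, 5422 at a mean of at least 5 CPM and 5750 to 6069 with 1 library left out. It was 6717 with counts divided by 8/3, an alternative chosen after seeing the data. Library size scaling moved the share of calls that were higher from 48.9% to 61.8% and the median of all genes by 0.107 on the log2 scale. Of 152 genes named, 147 were called, and 146 kept their call and direction in each alternative that gave a value, KLF4 being the exception with its direction kept. RRM2 turned to -0.0552 without the second fludarabine library (adjusted p = 0.809; up to 0.515 with other libraries left out) and was not called. Uncalled genes that passed elsewhere were CDKN1A (1.11 with DESeq2, 1.09 in the joint fit, 1.47 without the second fludarabine library, 1.06 in the fit of 18 libraries), FAS (0.70 with DESeq2), APAF1 (0.40 without the second DMSO library) and UGT2B17 (0.22 with library size scaling). The cause was not tested. The 30 differences between lines listed as flagged results were chosen for the text and called in the main fit. All of them kept their call in the 360 values computed. Of the 152 genes, 47 overlap another tested gene, and reads could be shared. No paired analysis was possible because library numbers are not shared between the groups. The shallower treated libraries limit genes near the floor of 3 counts.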
